A study of Mus musculus with 9 samples.

Results

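Across 9 cortex libraries carrying 0, 1 or 2 mutant alleles of Cyfip2, 7 of 15069 genes had every library of one genotype on the far side of every library of the next, which is 0.0465% of the genes. Of these, 6 (0.0398%) stepped down with each added allele and 1 (0.00664%) stepped up. The 6 are Cyfip2 itself, Fndc9, Med7, Gpr62, Pcdhb3 and Ndufs7, and the 1 is Slc17a5. Wild type (WT) was coded as 0 mutant alleles, heterozygous (Het) as 1 and homozygous (KO) as 2. A gene counted as ordered when the 3 WT, the 3 Het and the 3 KO values did not overlap and lay in that sequence. For 9 unequal values, 2 of the 1680 ways of assigning the genotypes give such an order, rising or falling, a fraction of 0.00119. The 7 genes are a smaller fraction of those tested, so their number shows no excess of ordering over arbitrary labels. Genes needed a mean of at least 10 normalized counts over the 9 libraries, which left out 3751 of the 18820 genes in the table. Each gene also received a slope, the change of log2(value + 1) per mutant allele. Because membership was decided by the values themselves, the values and slopes of the 7 genes are a description and support no claim about them. Cyfip2 is the mutated gene, named whatever its values, so its slope was also tested alone.

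The tissue was cortex, taken at embryonic day 18.5 from C57BL/6J embryos, with 3 libraries in each genotype and no treatment. The labels give neither the nature of the mutant allele nor whether the 3 libraries of a genotype were separate embryos. The p-values therefore reflect how far these particular libraries vary, which may be technical. With equal groups, the slope equals the KO minus WT difference divided by the 2 alleles, and the Het libraries enter it only through its error. The tissue is bulk, so fewer cells of a type and less RNA per cell cannot be told apart.

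CYFIP2 is a subunit of the WAVE regulatory complex, a protein assembly that sits inactive in the cytoplasm until the small GTPase Rac binds its CYFIP subunit. The freed WAVE subunit then switches on the Arp2/3 complex, which starts new actin branches in growth cones, dendritic spines and migrating cells. CYFIP proteins also bind FMRP, the RNA-binding protein lost in fragile X syndrome.

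The promoters of 4 members are given because Cyfip2, Fndc9 and Med7 are neighbours on chromosome 11 that stepped down together, and Slc17a5 is the member that stepped up. Each is the 250 bases before the RefSeq start (GRCm38.p6), read 5′ to 3′ on the gene's own strand, with GC boxes (GGGCGG or CCGCCC) and CCAAT boxes (CCAAT or ATTGG) in capitals. The RefSeq start used for Cyfip2 lies inside the longer GENCODE gene model. The windows are chr11:46312359-46312608 on the minus strand for Cyfip2, chr11:46235307-46235556 on the plus strand for Fndc9, chr11:46436697-46436946 on the plus strand for Med7 (the first of its 2 entries) and chr9:78588046-78588295 on the minus strand for Slc17a5.
Cyfip2: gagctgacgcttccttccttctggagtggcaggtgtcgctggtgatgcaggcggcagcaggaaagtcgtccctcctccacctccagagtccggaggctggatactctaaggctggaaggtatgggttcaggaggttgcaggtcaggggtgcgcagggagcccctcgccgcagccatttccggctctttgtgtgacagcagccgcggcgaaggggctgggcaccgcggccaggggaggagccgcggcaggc
Fndc9: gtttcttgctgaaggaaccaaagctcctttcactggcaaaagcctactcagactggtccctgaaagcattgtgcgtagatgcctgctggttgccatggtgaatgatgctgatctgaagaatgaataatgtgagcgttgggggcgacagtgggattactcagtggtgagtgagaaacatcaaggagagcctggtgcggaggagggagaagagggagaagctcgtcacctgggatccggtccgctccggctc
Med7: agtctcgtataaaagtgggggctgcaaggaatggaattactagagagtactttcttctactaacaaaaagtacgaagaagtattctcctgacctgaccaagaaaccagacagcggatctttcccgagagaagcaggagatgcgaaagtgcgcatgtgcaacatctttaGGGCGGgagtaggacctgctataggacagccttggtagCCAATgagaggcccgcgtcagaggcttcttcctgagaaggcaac
Slc17a5: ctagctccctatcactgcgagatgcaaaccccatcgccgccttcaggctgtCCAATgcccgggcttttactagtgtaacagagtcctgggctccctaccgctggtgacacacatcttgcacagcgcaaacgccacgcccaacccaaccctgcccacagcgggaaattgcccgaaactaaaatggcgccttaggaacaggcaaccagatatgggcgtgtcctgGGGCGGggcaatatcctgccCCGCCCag

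Neither motif was found in the Cyfip2 or Fndc9 window, whereas the Med7 window held 1 GC box and 1 CCAAT box and the Slc17a5 window 2 GC boxes and 1 CCAAT box. Among 32851 RefSeq promoter windows of this length, 32.7% held a GC box and 33.8% a CCAAT box on either strand, and the motifs do not overlap in the windows printed. The Cyfip2 window was 66.4% G and C, the Fndc9 window 53.6%, the Med7 window 49.2% and the Slc17a5 window 59.6%, against a median of 52.4% over all windows. The Ndufs7 and Gpr62 windows held neither motif. These matches describe letters only.

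After the authors' scaling, library totals lay between 36.0 and 38.6 M (mega) normalized counts, and approximate depth between 29.5 M reads in KO replicate 1 and 54.4 M in WT replicate 2. The cortical marker Tbr1, of deep-layer neurons, was high in every library, from 8835 to 11543 normalized counts. Y-linked genes showed 6 male libraries, 3 of WT, 2 of Het and 1 of KO, so sex moved with allele number. The olfactory bulb marker Cdhr1 lay between 2138 and 3436 in 4 libraries, replicate 3 of WT, replicate 1 of Het and replicates 1 and 2 of KO, against 21.8 to 53.1 in the remaining 5. The 11 bulb markers in the table summed to 19139 to 21215 in WT, 15384 to 23986 in Het and 13529 to 27036 in KO, with 3 of the 11 at 0 in some library. Slopes in the 6 male libraries alone, and without the 4 libraries holding bulb RNA, are given beside each ordered gene. In both subsets KO replicate 3 was the only KO library, so these slopes rest on it and are not separate checks. Sex or bulb markers were also fitted as a covariate over all libraries. The Cyfip2 slope was then -0.17 ± 0.03 (SE) with sex and -0.20 ± 0.03 with bulb markers. That of Fndc9 was -1.96 ± 0.35 with sex and -1.77 ± 0.32 with bulb markers. Slopes of the other ordered genes kept their sign in both fits. Any further part of sex and tissue makeup was not tested.

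Cyfip2 (ENSMUSG00000020340, chromosome 11, 46193850 to 46312859, minus strand, GENCODE M21 on GRCm38) had normalized counts of 10169, 10344 and 11174 in WT replicates 1 to 3. The Het libraries held 8969, 9779 and 9882, and the KO libraries 7900, 7522 and 8255. The lowest WT library stood above the highest Het library and the lowest Het library above the highest KO library. Group means were 10562 ± 537, 9543 ± 500 and 7893 ± 366 (SD, n = 3 each), which puts Het at 90.4% and KO at 74.7% of WT. Since 1 value stands for the whole gene, it does not show whether a deleted part is absent from the remaining RNA.

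The slope of Cyfip2 was -0.21 ± 0.03 log2 per allele (SE; 95% interval -0.28 to -0.14), the smallest p of the 15069 genes, yet its adjusted p was 0.576 (limma with Benjamini-Hochberg adjustment). Taken alone, the slope had p = 0.00119 in an exact two-sided permutation test, with 2 of 1680 assignments as large. That is the smallest p this test can give, and any ordered gene reaches it. The first allele went with a log2 difference of -0.15 ± 0.06 and the second with -0.27 ± 0.06. Het lay 0.06 ± 0.05 above the log2 value halfway from WT to KO, a departure about the size of its error. In the 6 male libraries alone the slope was -0.16 ± 0.04, and without the 4 libraries holding olfactory bulb RNA it was -0.14 ± 0.04.

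**Figure D1:**
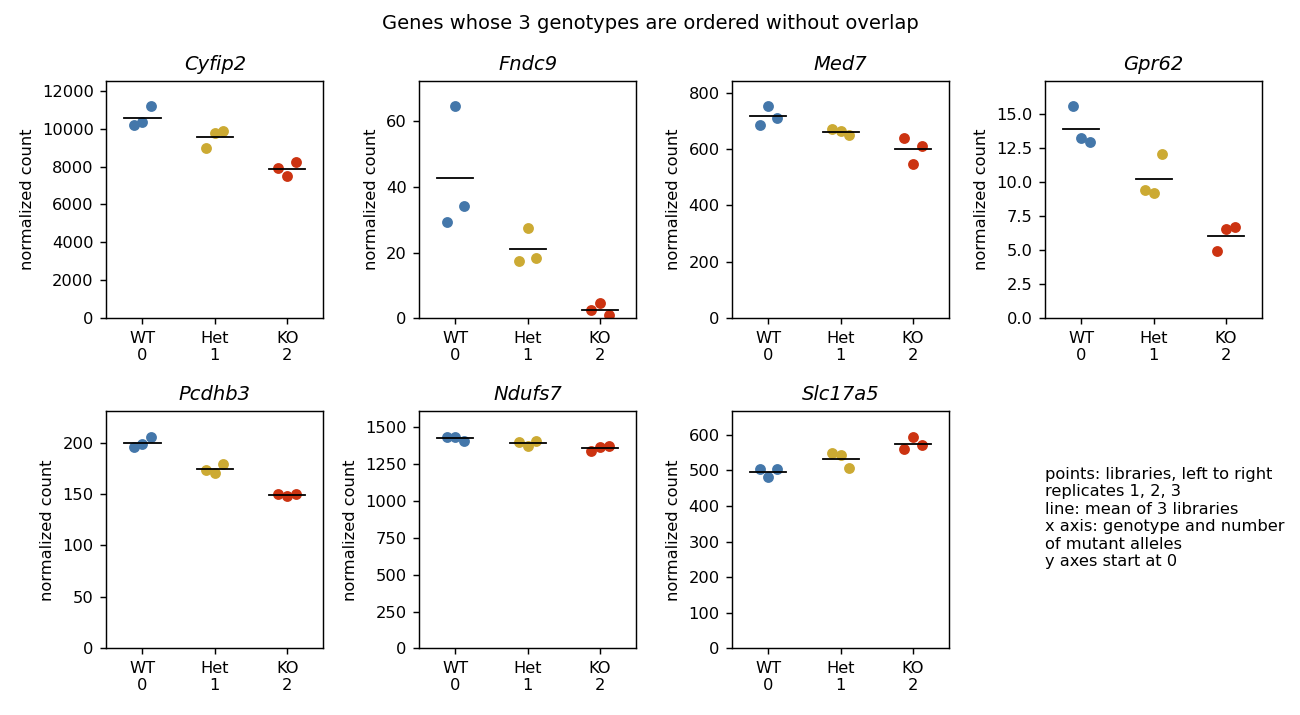
Normalized counts (y axes, each from 0) of the 7 ordered genes by genotype and number of mutant alleles (x axes), with 1 point per library and a line at the mean of 3. Fndc9 is the steepest, with KO values from 0.914 to 4.50 against 29.4 to 64.6 in WT, and Ndufs7 the shallowest, with KO at 95.4% of WT.

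Fndc9 (ENSMUSG00000048721, chromosome 11, 46235531 to 46239872, plus strand), the gene of a protein with a fibronectin type III domain, lies wholly inside Cyfip2 on the opposite strand, an overlap of 4342 bases. Its normalized counts were 29.4, 64.6 and 34.1 in WT, 17.5, 27.4 and 18.3 in Het, and 2.46, 4.50 and 0.914 in KO. All 3 KO libraries were near the floor, and WT replicate 2 stood well above the other WT libraries. Het reached 49.3% of the WT mean and KO 6.15%, from means of 42.7 ± 19.1, 21.1 ± 5.54 and 2.63 ± 1.80 (SD, n = 3). As 1 read is worth 0.922 to 1.22 units in the KO libraries, these values stand for about 2, 4 and 1 reads. From summed approximate reads, KO was 5.40% of WT (exact 95% interval 2.14% to 11.4%), and Het was 46.4% of WT (34.1% to 62.4%), intervals that cover counting error only.

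On the log2 scale the slope of Fndc9 was -1.82 ± 0.28 per allele (95% interval -2.44 to -1.19), with an adjusted p of 0.576 (limma). Its steps were unequal: -0.93 ± 0.48 from WT to Het and -2.71 ± 0.48 from Het to KO, which put Het 0.89 ± 0.41 above the log2 midpoint. In counts rather than logs, the group means differed by similar amounts at both steps, but the WT mean was raised by WT replicate 2 (64.6, against 29.4 and 34.1). The slope was -1.94 ± 0.41 in male libraries alone and -2.08 ± 0.46 without the libraries holding bulb RNA. The kit keeps strand, but the sources used here do not say whether counting used it. Reads of Fndc9 and of the Cyfip2 gene around it may therefore not be separated.

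Med7 (ENSMUSG00000020397, chromosome 11, 46436925 to 46442721, plus strand), a middle-module subunit of the Mediator complex that links transcription factors to RNA polymerase II, starts 0.124 Mb from Cyfip2. WT libraries held 686, 751 and 711 normalized counts, Het libraries 671, 663 and 651, and KO libraries 640, 546 and 611. The Het libraries were tightly grouped, and both steps were narrow: Het replicate 3 lay 0.025 above KO replicate 1 on the log2 scale, the smallest gap of the gene, and WT replicate 1 stood just above Het replicate 1. Het was 92.4% and KO 83.6% of the WT mean of 716 ± 32.7 (SD, n = 3). The slope was -0.13 ± 0.04, with steps of -0.11 ± 0.08 and -0.15 ± 0.08. A lincRNA on the other strand, 2310031A07Rik, overlaps 2360 bases of the gene. The slope was -0.12 ± 0.05 in male libraries and -0.12 ± 0.06 without the bulb libraries, and under upper-quartile or quantile scaling Med7 no longer met the ordering.

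Of 64 tested genes within 5 Mb of Cyfip2, 37 had a slope below 0 and 27 above, with a median of -0.01, against 7782 of 15069 (51.6%) below 0 and a median of -0.002 over all genes. Inside 0.5 Mb, a window chosen after these values were seen, 9 of 11 were below 0 with a median of -0.13, or -0.12 without Cyfip2. None of the 64 passed the threshold, and 4 had an unadjusted p under 0.05, namely Cyfip2, Fndc9, Med7 and Thg1l, a tRNA-modifying enzyme gene at -0.10 ± 0.04. Havcr2, an immune receptor gene, was at -0.36 ± 0.16, the pseudogene Gm12174 at -0.40 ± 0.18 and Nipal4 at -0.28 ± 0.32. Adam19, a membrane protease gene, and Lsm11, of the U7 particle, were both at -0.07, with errors of 0.04 and 0.06. On the other side of 0, Clint1, a clathrin adaptor gene, had 0.00 ± 0.04 and Sox30 0.20 ± 0.24. Beyond 0.5 Mb, out to 5 Mb, no gene was ordered.

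**Figure D2:**
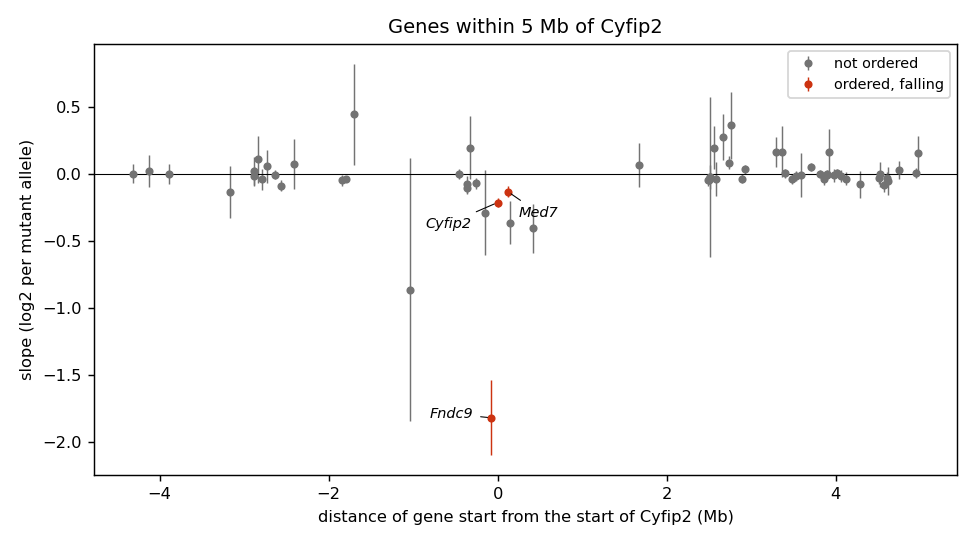
Slope on allele number (y axis, log2 per mutant allele, bars ± SE) of the 64 tested genes within 5 Mb of Cyfip2 against distance of the gene's start from that of Cyfip2 (x axis, Mb). Red points are the 3 ordered genes, and 9 of the 11 genes within 0.5 Mb lie below 0.

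Gpr62 (ENSMUSG00000091735, chromosome 9, 106463962 to 106465938, minus strand) encodes an orphan G-protein-coupled receptor. Its normalized counts were 15.6, 13.3 and 13.0 in WT, 9.42, 9.20 and 12.1 in Het, and 4.96, 6.54 and 6.67 in KO. The genotypes stood apart, but with a mean of 10.1 over the 9 libraries the gene only just passed the filter, which a lower WT level would have failed. KO was 43.5% and Het 73.4% of WT, and the slope was -0.54 ± 0.15. About 4, 6 and 7 reads lie behind the KO values, and from summed approximate reads KO was 44.5% of WT (exact 95% interval 23.9% to 79.1%). The intervals for KO as a share of Het, 31.2% to 113%, and for Het as a share of WT, 44.9% to 119%, both cover equality. The slope was -0.46 ± 0.22 in male libraries and -0.49 ± 0.26 without the bulb libraries. The gene shares 51 bases with Pcbp4 on the other strand.

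Pcdhb3 (ENSMUSG00000045498, chromosome 18, 37300799 to 37304585, plus strand) is one of the clustered beta protocadherins, cell-surface adhesion proteins that give neurons distinct molecular identities. WT libraries held 196, 198 and 206 normalized counts, Het libraries 173, 171 and 179, and KO libraries 150.0, 148 and 150.1. The replicates were close and the smallest gap between genotypes, 0.13 on the log2 scale, was the widest of the 7 genes. KO was 74.6% of WT and Het 87.2%, nearly even steps, with a slope of -0.21 ± 0.05 and an unadjusted p of 0.00315 that did not survive adjustment (adjusted p = 1.00, limma). The slope was -0.20 ± 0.08 in male libraries and -0.19 ± 0.10 without the bulb libraries. Protocadherin genes resemble each other, and 3 long gene models of the cluster, Gm42416, Gm37013 and Gm37388, span Pcdhb3 on the same strand, so how reads were divided among them is uncertain.

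Of the 22 beta protocadherins in the table, 21 were tested, and 14 had slopes above 0 and 7 below, with a median of 0.03. Pcdhb3 was the only one ordered. The next lowest after Pcdhb3 was Pcdhb5 at -0.05 ± 0.08. The family was assembled by symbol after its member was known, as were those of the Mediator, Nduf and Slc17 genes.

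Ndufs7 (ENSMUSG00000020153, chromosome 10, 80249121 to 80256794, plus strand) encodes an iron-sulfur subunit of respiratory complex I. Normalized counts were 1437, 1437 and 1409 in WT, 1402, 1374 and 1408 in Het, and 1341, 1370 and 1373 in KO. WT replicate 3 and Het replicate 3 were all but equal, a gap of 0.000625 on the log2 scale, so Ndufs7 is the member just inside the rule. KO was 95.4% of WT and Het 97.7%. Its slope of -0.03 ± 0.02 ranked 1384 by p, and was -0.03 ± 0.04 in male libraries and -0.04 ± 0.04 without the bulb libraries. Under upper-quartile or quantile scaling it was no longer ordered.

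Among the 39 Nduf genes, 35 slopes were below 0 and 4 above, with a median of -0.03, and 16 had group means falling in genotype order. Over all genes, 51.6% of slopes were below 0 and 14.6% had means falling in order. The Mediator subunits leaned the same way, 24 of 30 below 0 with a median of -0.03 and Med27 at -0.10 ± 0.04 beside Med7. Neither family had a gene past the threshold.

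**Figure D3:**
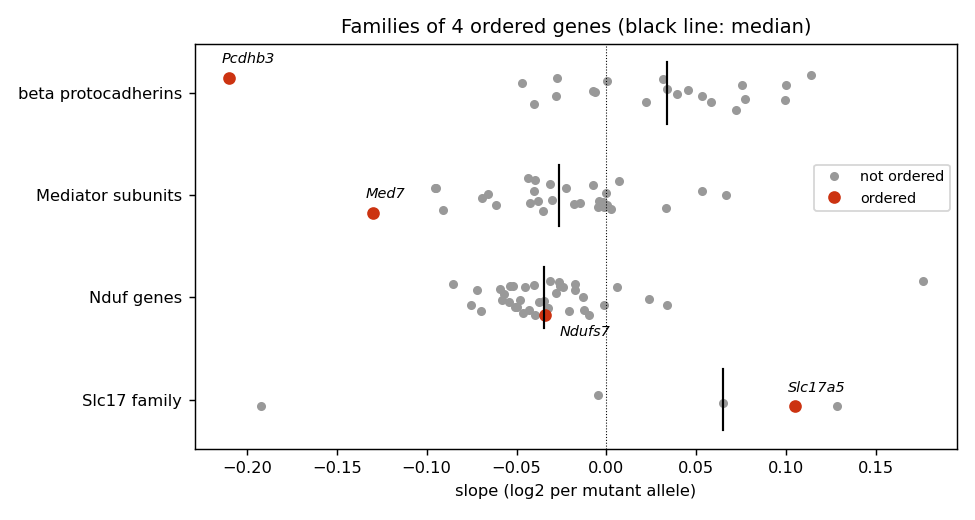
Slope on allele number (x axis, log2 per mutant allele) of each tested gene in the families of 4 ordered genes (rows), with a black line at the family median. Red points are ordered genes. Pcdhb3 at -0.21 lies far below its family median of 0.03, while Ndufs7 sits on that of the Nduf genes, -0.03.

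Slc17a5 (ENSMUSG00000049624, chromosome 9, 78536488 to 78588041, minus strand), which encodes sialin, the carrier that exports sialic acid from lysosomes, was the only one of the tested genes ordered upward. Its normalized counts were 505, 482 and 503 in WT, 549, 543 and 507 in Het, and 559, 595 and 570 in KO. Het replicate 3 lay just above the highest WT library, a gap of 0.0076 on the log2 scale. KO was 116% and Het 107% of the WT mean of 497 ± 12.6 (SD, n = 3). The slope was 0.10 ± 0.04, with 0.10 ± 0.05 in male libraries and 0.10 ± 0.06 without the bulb libraries. Other Slc17 carriers, which include the vesicular glutamate transporters, ranged from -0.19 ± 0.19 for Slc17a9 to 0.13 ± 0.25 for Slc17a8, with Slc17a7 at 0.07 ± 0.13. Slc17a5 was not ordered under upper-quartile or quantile scaling.

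Scaling decided part of the membership. Upper-quartile scaling gave 0 rising and 7 falling genes, keeping Cyfip2, Fndc9, Gpr62 and Pcdhb3 and adding Eif5a, Mvk and Tm2d3. Quantile normalization gave 0 rising and 5 falling genes, of which only Cyfip2 and Fndc9 were among the 7. Slopes kept their sign for all 7 genes under every alternative run. The ordering fixes that sign in advance wherever libraries are left out, so it is no sign of robustness there. Leaving out a library keeps all 7 by construction and loosens the rule, and the number of ordered genes then ran from 13 without WT replicate 2 to 38 without KO replicate 3, with 18 without WT replicate 1, 26 without WT replicate 3 or KO replicate 1, 19 without Het replicate 1 or 2, 29 without Het replicate 3 and 14 without KO replicate 2.

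The nearest misses in both directions were sought only among genes with a proper symbol. Just outside the rule on the falling side was Eif5a, a translation factor gene, whose groups overlapped by 0.0017 on the log2 scale. Next were Mzt2, of the gamma-tubulin complex, by 0.0021, and Mvk, mevalonate kinase of sterol synthesis, by 0.0053. Eif5a held 12735, 12785 and 13774 normalized counts in WT, 12448, 12446 and 12750 in Het, and 11925, 11567 and 12312 in KO, so that only WT replicate 1 and Het replicate 3 crossed. On the rising side the nearest were Pds5b, a cohesin regulator gene, with an overlap of 0.0089, Rsl1 with 0.024 and Dis3l2, an RNA exonuclease gene, with 0.034. Pds5b held 4297, 4371 and 4452 in WT, 4573, 4425 and 4779 in Het, and 4811, 4853 and 4807 in KO. The falling misses lay between the margins by which Ndufs7 (0.000625) and Slc17a5 (0.0076) came in. The rising misses were larger than both margins, that of Pds5b only slightly.

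No slope passed an adjusted p of 0.05 in either direction (0 of 15069, limma), and the smallest adjusted p was 0.576. At an unadjusted p under 0.05 there were 198 genes (1.31%), 92 higher (0.611%) and 106 lower (0.703%). That share is below the 0.05 that the threshold alone would give with no true slope. A test of the 3 genotype means in place of a slope also called 0 genes. Group means stood in genotype order for 2065 genes rising (13.7%) and 2198 falling (14.6%). Ordered means were thus common and ordered libraries rare, a contrast that the stricter rule on 9 libraries would give by itself. Complete separation of single pairs was also far more frequent than the 3-step ordering: WT and Het were separated with WT lower in 506 genes (3.36%) and WT higher in 499 (3.31%). Het and KO were separated with Het lower in 474 (3.15%) and Het higher in 705 (4.68%). WT and KO were separated with WT lower in 477 (3.17%) and WT higher in 497 (3.3%).

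**Figure D4:**
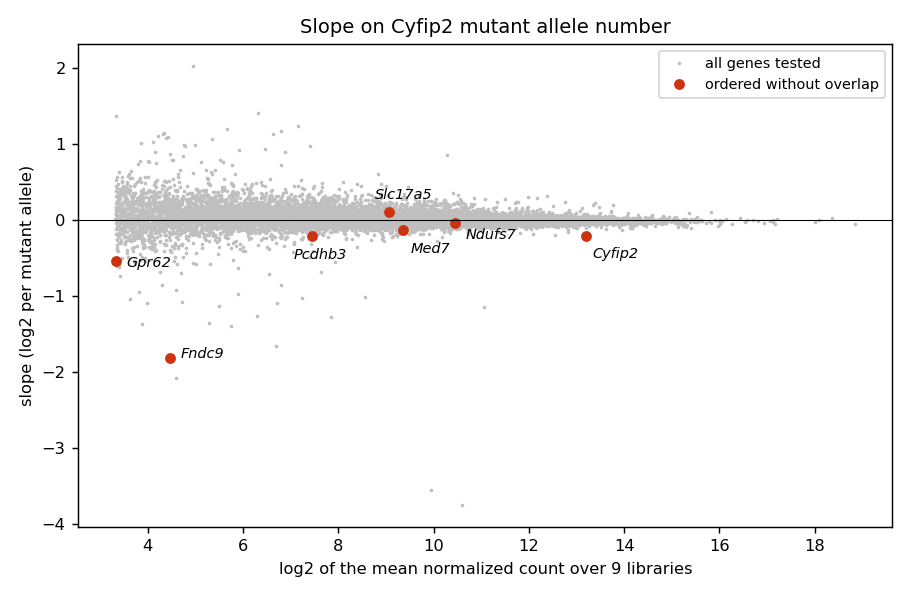
Slope on allele number (y axis, log2 per mutant allele) against the log2 of the mean normalized count (x axis) for 15069 genes, with the 7 ordered genes in red. Cyfip2 lies at -0.21 among abundant genes and Gpr62 at the low edge set by the filter of 10, and the 2 lowest points are the Y-linked Eif2s3y and Ddx3y.

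Among genes with a proper symbol, the smallest p after Cyfip2 and Fndc9 on the lower side was that of Becn1, an autophagy gene. On the higher side the smallest were those of Dpm1, Pds5b and Aloxe3. None of these genes passed, and over all genes Pds5b ranked 15 by p and Aloxe3 16. Becn1 held 3211, 3226 and 3167 normalized counts in WT, 3211, 2971 and 3063 in Het, and 2905, 2621 and 2699 in KO, with WT and Het overlapping. Dpm1, of dolichol-phosphate mannose synthesis, had a slope of 0.21 ± 0.05 and KO at 134% of WT. Aloxe3, an epidermal lipoxygenase gene, held 67.1, 72.0 and 69.2 in WT, 69.4, 54.5 and 64.1 in Het, and 161, 185 and 111 in KO. Aloxe3 was therefore level over WT and Het and higher in KO, a pattern a slope describes poorly. The steepest slopes of all belonged to Y-linked genes, Eif2s3y at -3.75 ± 1.68 and Ddx3y at -3.55 ± 1.58, with Kdm5d at -1.14 ± 0.50 and Uty at -1.02 ± 0.45. These levels follow the number of male libraries, and none was ordered.

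Pearson's r with Cyfip2 over the 9 libraries, in log2 values, was compared among genes with a proper symbol. The most alike were Pcdhb3 (0.96), Kif9, a kinesin gene (0.94), Eif5a (0.93), Enkd1 (0.91) and Gpr62 (0.90). Fndc9 had 0.87, Med7 0.85, Ndufs7 0.77 and Slc17a5 -0.91. These are descriptions over 9 libraries that share the genotype steps, and the ordering itself gives the ordered genes high values.

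Lists of genes around CYFIP2 biology held no gene past the threshold, and Cyfip2 was the only ordered WAVE member. Of 11 tested WAVE complex genes, 7 had slopes above 0 and 4 below, with a median of 0.01 against -0.002 over all genes. The paralog Cyfip1 was at 0.01 ± 0.03, and the adaptor subunit genes Abi1 and Abi3 at 0.05 ± 0.03 and 0.19 ± 0.20. Arp2/3 genes were 4 above and 13 below 0 of 17, with a median of -0.01, Actr3, a core subunit gene, at -0.05 ± 0.04 and Arpc5l at -0.04 ± 0.03. Rac signalling genes were 10 above and 11 below 0 of 21, with the Rac regulators Chn1 and Tiam2 at -0.06 ± 0.04 and -0.10 ± 0.07. FMRP and cap-binding partners were 8 above and 8 below 0 of 16, with Mknk1, a kinase of the cap-binding factor, at 0.09 ± 0.03 and Nufip2 at 0.05 ± 0.05. Excitatory synapse genes were 22 above and 10 below 0 of 32, with a median of 0.02, the scaffold gene Shank3 at 0.05 ± 0.04 and the adhesion gene Nlgn2 at 0.03 ± 0.03.

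Genes of energy and protein production had slopes mostly below 0, small in size and none past the threshold. Oxidative phosphorylation genes were 42 of 43 below 0 (against 51.6% of all genes) with a median of -0.03, and 22 of the 43 (against 14.6% of all genes) had group means falling in order. Many of them are Nduf genes already counted in that family, so the list and the family are not separate results. The ATP synthase gene Atp5o was at -0.05 ± 0.02 and Uqcrc1 of complex III at -0.04 ± 0.02. Mitochondrial ribosome genes were 68 of 77 below 0 with a median of -0.04, among them Mrps23 at -0.22 ± 0.06 and Mrps11 at -0.16 ± 0.05. Cytosolic ribosome genes were 48 of 52 below 0, with a median of -0.03, Rps16 at -0.07 ± 0.03 and Rpl28 at -0.05 ± 0.03. Median slopes stayed below 0 for these 3 lists under all 22 alternatives, from -0.06 to -0.02. Some of the 22 cannot move a slope, namely leaving out a Het library, the replicate block and eBayes without a trend. By library, Het replicate 2 and KO replicate 2 stood lowest in all 3, at -0.13 and -0.12 on the centred log2 scale for oxidative phosphorylation, -0.11 and -0.15 for the mitochondrial ribosome and -0.11 and -0.09 for the cytosolic ribosome, so the list levels of Het and KO libraries were not in genotype order. WT replicate 3 was at -0.08 for the cytosolic ribosome, below Het replicates 1 and 3 and also KO replicates 1 and 3. For the mitochondrial ribosome it was at -0.04, below Het replicates 1 and 3 and KO replicate 3. WT and KO libraries thus overlapped in both ribosome lists. For oxidative phosphorylation WT replicate 3, at -0.03, was above every KO library. Without KO replicate 2 the mitochondrial ribosome median was -0.02, and without WT replicate 1 or 3 the cytosolic ribosome median was -0.02 or -0.05. Mrps23 stood at 75.2% of WT in Het and 73.9% in KO, so Het and KO were close to each other.

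Collagen and basement membrane genes were above 0 in 27 of 27, with a median of 0.22, and striatal neuron genes in 16 of 17, with a median of 0.31, none past the threshold. Lamc1, a laminin chain gene, had 0.30 ± 0.12, Col11a2 0.22 ± 0.13 and Foxp1, a transcription factor gene on the striatal list, 0.16 ± 0.07. By library the collagen list stood highest in KO replicate 1 and Het replicate 1, at 0.86 and 0.60 on the centred log2 scale, and lowest in Het replicate 3, at -0.99. Meningeal fibroblast markers, all 18 above 0 with a median of 0.21, summed to 26661 to 33015 normalized counts in WT, 3262 to 49620 in Het and 30738 to 58349 in KO. The collagen median was 0.05 without KO replicate 1, -0.05 without the 4 libraries holding bulb RNA, -0.05 with sex as a covariate, 0.01 with bulb markers as a covariate and -0.09 in the 6 male libraries. The meningeal median was -0.36 with sex as a covariate, -0.21 with bulb markers as a covariate, -0.43 in male libraries and -0.26 without the bulb libraries. Leaving out 1 KO library gave 0.01 (replicate 1) or 0.11 (replicate 2), and WT replicate 2 or 3 gave 0.31 or 0.38. By library the striatal list stood highest in KO replicates 2 and 1 and Het replicate 1, at 1.89, 1.40 and 1.27, and lowest in Het replicate 3 and KO replicate 3, at -0.70 and -0.65. Foxp1 held 3469, 3328 and 3839 normalized counts in WT, 4340, 3498 and 4106 in Het, and 3506, 5069 and 4869 in KO. Unlike its list, it was at the WT level in KO replicate 1 and high in KO replicate 3. The striatal median was -0.25 with sex as a covariate, 0.02 with bulb markers as a covariate, -0.31 in male libraries and -0.32 without the bulb libraries. It was 0.19 without KO replicate 1, 0.12 without KO replicate 2 and 0.81 without KO replicate 3. KO replicate 3 was the only KO library both among the male libraries and among those without bulb RNA, so these medians rest on it. Neither list held an ordered gene.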

How the data were processed

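The deposited table holds 1 signal per gene and library, read from its title and values as gene counts that the authors had put on a common scale with size factors. Salmon (0.11.2), R (3.6.0), the build GRCm38 and DESeq2 (1.19.11) appear in the submitters' processing notes without a stated role. The labels' protocols give a TruSeq Stranded mRNA kit. Groups came from the sample labels. In each library, 60.8% to 78.2% of the values under 6 were within 0.1 of whole multiples of a step, so whole reads were not recovered and count tests were not used; approximate depth is the library total divided by the step.

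Values were taken as log2(value + 1), a scale that understates changes of low genes, in 15069 genes whose mean reached 10. limma 3.58.1 in R 4.3.3 (lmFit, eBayes with a trend) fitted the slope on allele number over all 9 libraries, two-sided, with Benjamini-Hochberg adjustment over all genes and a threshold of 0.05. The script was tested on simulated data. Errors are SDs beside group means and limma standard errors beside slopes. Read intervals are exact 95% intervals (scipy 1.17.1, Python 3.11.15). Symbols and coordinates came from GENCODE M21, matching 18783 of 18820 IDs, and promoters from RefSeq.

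Named genes were Cyfip2, the ordered genes, the 3 nearest misses and 3 smallest p in each direction, the 5 most like Cyfip2, and for each described list its ordered members and the 2 with the smallest p in the direction of its median; the result of 1 gene that this rule takes is not reported here. The nearest misses, the smallest p and the genes most like Cyfip2 were taken among proper symbols, passing over gene-model, clone and accession names. Other genes, those of the neighbourhood, the families and the library checks, were chosen after their values were seen. The members and lists were chosen with earlier results of these data known. Alternatives were pseudocounts of 0.5 and 5, other filters, quantile and upper-quartile scaling, a replicate block, sex or bulb markers as a covariate, eBayes without a trend, 3 genotype means, and leaving out libraries. Replicate numbers were not used to pair libraries.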

Additional observations from a re-analysis of the deposited data

How the results depend on the processing

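No slope passed the threshold under any alternative run. The number of genes ordered upward was 2 with a mean of at least 1 and 2 with no filter, the added gene being Epo, and it was 0 under quantile and 0 under upper-quartile scaling. With a mean of at least 50, which leaves out Fndc9 and Gpr62, 5 of the 7 remained. Leaving out one library at a time gave 2 to 13 genes ordered upward and 7 to 25 downward. Chosen after seeing the data, leaving out the 4 libraries with bulb RNA gave 532 upward and 572 downward, and the 6 male libraries alone 205 and 255, since fewer libraries must be in order.

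Some alternatives, such as leaving out a Het library, cannot move a slope. Of 857 alternative slopes of 39 named genes, 5 changed sign, and the cause was not tested. Without the bulb libraries these were Actr3 (0.0062) and Tiam2 (0.0064), and in male libraries Actr3 (0.0061), Shank3 (-0.0089) and Tiam2 (0.057).

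Libraries of the same replicate number correlated in their deviations by 0.45, 0.10 and 0.47 between Het and KO, but by -0.07 to 0.25 between WT and either, so not every pair was over 0.1 and the numbers were not taken to pair the libraries across the 3 genotypes. Of the different-number Het and KO pairs, Het replicate 2 with KO replicate 1 (0.15) was above the same-number value of Het replicate 2. With the replicate block the Cyfip2 slope was -0.21 ± 0.03 (adjusted p = 0.582, limma), 0 genes passed and 360 had an unadjusted p under 0.05. Depth limits Fndc9 and Gpr62, whose KO values rest on 1 to 7 reads each.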
